A study of Glycine max with 2 samples.

Results

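Chromatin modifiers write, erase or read marks on histones and DNA or move nucleosomes, and Mediator is the large complex that carries signals from DNA-bound transcription factors to RNA polymerase II. In plants, enzymes of this kind set flowering time and take part in leaf ageing. In Arabidopsis, the demethylase REF6 promotes leaf senescence and the demethylase JMJ16 holds it back. Isoforms of these proteins were taken from 2 tables of soybean (Glycine max) leaf RNA by the words of their descriptions: Mediator of RNA polymerase, histone-lysine, histone deacetylase, histone acetyltransferase, chromatin, chromodomain, SWI/SNF, DNA (cytosine, lysine-specific demethylase or lysine-specific histone. They numbered 37 isoforms of 30 genes among 2471 listed transcripts at 95 days after sowing, and 35 isoforms of 29 genes among 2413 at 50 days. Over both ages these were 63 different isoforms of 48 genes, among 4096 listed isoforms of 3358 genes.

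The study set an early against a late senescence type of greenhouse-grown plants and asked which genes differ between them at each age. Each table compared 2 leaf libraries, called B and A in its columns, so there was 1 library per type and age and no replicate. Neither labels nor headers say which letter is the early type, or whether a letter is the same type at both ages. The libraries are called type B and type A here, and the labels give no cultivar, no genotype and no number of plants behind a library.

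Values are normalised reads per isoform, a whole-number count divided by the library's size factor. Both tables list only transcripts with an unadjusted p under 0.05 in the authors' comparison, so isoforms that did not differ are missing, library depth is unknown, and an isoform's value is not its gene's total. Against a library with 0 reads, a fold is the lower bound that 3 reads there would give, and other folds carry a 95% exact (Clopper-Pearson) interval. These limits treat the counts as directly counted reads and cover counting error alone. An isoform is called if its adjusted p in the authors' deposited table is below 0.05 and its log2 ratio of B over A is at least 1 in size. It passes the size rule where that ratio, with 0 reads set to 3, is at least 5 in size, which is 32-fold. In whole leaves, fewer cells of a type and less RNA per cell cannot be told apart. Leaf identity could not be checked in these tables, since of the leaf mesophyll markers (chlorophyll a-b binding proteins and the small subunit of Rubisco) 0 isoforms were listed at 95 days and 3 at 50 days, all 3 higher in A. Markers of other cells were as few: guard cell 0, vascular 1, root and nodule 1 and seed 1 at 95 days, and 1, 1, 3 and 3 at 50 days; their part in the results was not tested.

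The listed isoforms of chromatin and Mediator genes lay on both sides at both ages. At 95 days B was higher for 19 and A for 18, which is 51.4% in B, against 53.3% of all listed transcripts. At 50 days B was higher for 15 and A for 20, 42.9% in B, against 39.2% of all listed. The members' median log2 ratio of B over A, from the authors' deposited table, was 7.06 at 95 days, where that of all listed transcripts was 4.52. At 50 days it was -6.89, against -5.29 for all listed. With members so evenly divided, the median says little: with 1 isoform per gene it was -5.52 at 95 days.

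Of the 37 members at 95 days 1 was called, which is 2.7%, where 1.5% of all listed transcripts were called. By side, 0 members were called higher in B (0.728% of all listed) and 1 lower in B (0.769%). Of the 35 at 50 days 3 were called, 8.57%, where 4.64% of all listed were, with 2 higher in B (1.45% of all listed) and 1 lower in B (3.19%). The size rule was passed by 35 members at 95 days (94.6%, against 78.6% of all listed) and by 34 at 50 days (97.1%, against 80.7%). At 95 days 19 of them were higher in B (40.8% of all listed) and 16 lower in B (37.8%), and at 50 days 15 were higher in B (32.9%) and 19 lower in B (47.8%). The lower library had no read for 33 of the 37 members and 28 of the 35 (89.2% and 80%, against 75.3% and 70.5% of all listed transcripts). The reads in the higher library ran from 88.4 to 2412 at 95 days, with a median of 449.6, and from 36.9 to 2795 at 50 days, with a median of 412.6. Over all listed transcripts these medians were 359.9 and 370.8. Reads are not scaled to transcript length, so levels of different genes are not compared here.

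**Figure D1:**
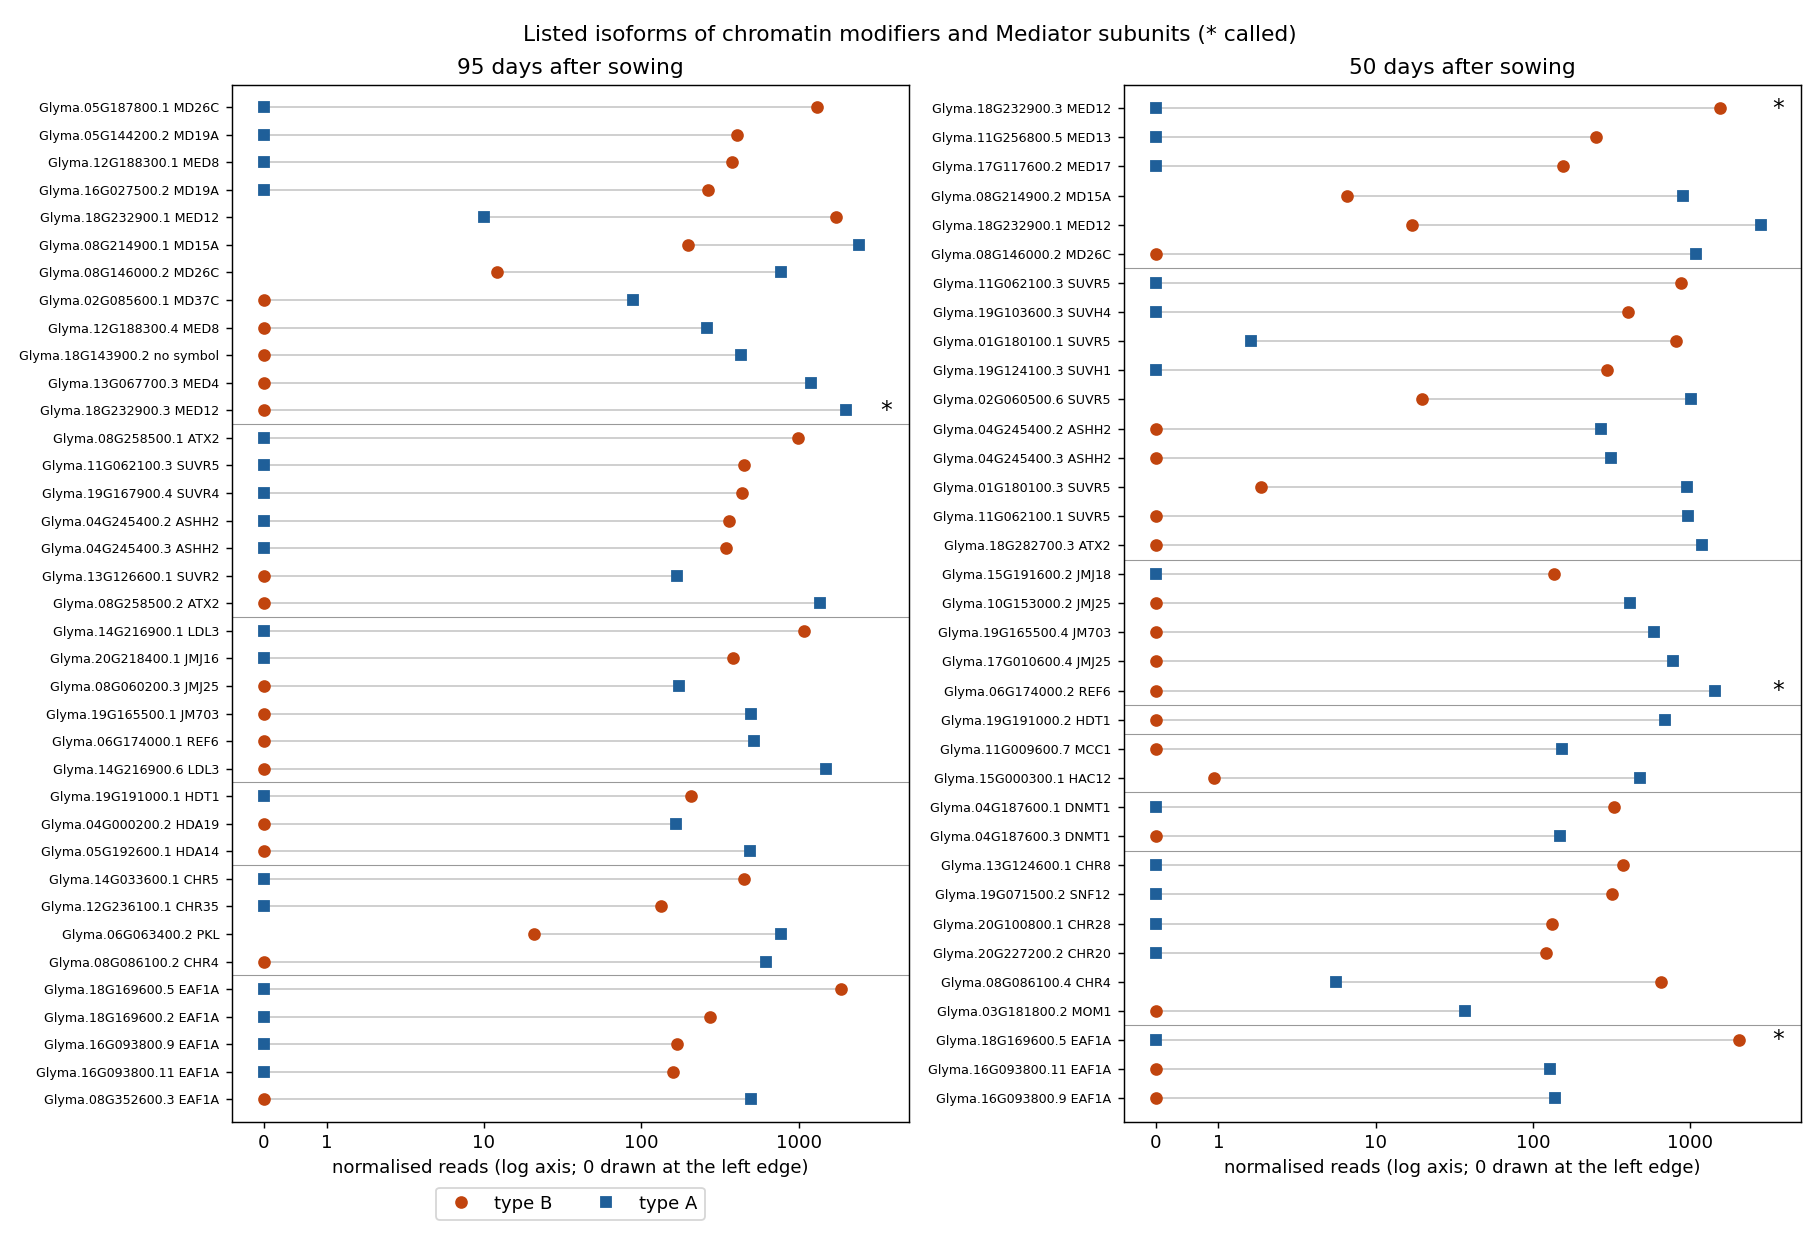
Normalised reads (horizontal log axis, 0 drawn at the left edge) of every listed isoform of chromatin modifiers and Mediator subunits at 95 days (left) and 50 days (right), with circles for type B and squares for type A, lines between classes and an asterisk on called isoforms. In 33 of 37 isoforms at 95 days and 28 of 35 at 50 days one of the points sits at 0.

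The 4 calls fell on 3 genes. At 95 days the call was isoform 3 of MED12, Glyma.18G232900.3, lower in B. At 50 days the calls were the same MED12 isoform, now higher in B, an EAF1-like isoform, Glyma.18G169600.5, higher in B, and a REF6-like isoform, Glyma.06G174000.2, lower in B. In each of the 4 the lower library had no read.

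MED12 belongs to the kinase module of Mediator, a detachable part that regulates contact with the polymerase. Its isoform Glyma.18G232900.3 had 0 in B against 1983 normalised reads in A at 95 days, at least 604-fold lower in B (adjusted p = 0.0425 by the authors' deposited table). At 50 days the same isoform had 1533 in B against 0 in A, at least 637-fold higher in B (adjusted p = 0.0296 by the authors' deposited table). The other listed isoform, Glyma.18G232900.1, took the opposite side at each age. It had 1727 in B against 9.96 in A at 95 days, 173-fold (87.8 to 402) higher in B, and 16.9 in B against 2795 in A at 50 days, 165-fold (104 to 279) lower in B. Neither of these differences was called, with adjusted p-values of 0.213 and 0.196 in the authors' deposited table. So in each of the 4 libraries 1 of the 2 MED12 isoforms held nearly all the listed reads of the gene. At 95 days this was isoform 1 in B and isoform 3 in A. At 50 days it was isoform 3 in B and isoform 1 in A. The authors' way of dividing reads between isoforms is not stated, so this split is uncertain.

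Mediator had 12 listed isoforms of 10 genes at 95 days, 5 higher in B and 7 in A, and 6 of 5 genes at 50 days, 3 on each side. MED13, the partner of MED12 in the kinase module, was listed at 50 days only, where Glyma.11G256800.5 had 253 normalised reads in B against 0 in A. Both MED19 genes had reads in B only at 95 days. Glyma.05G144200.2 had 407 in B and Glyma.16G027500.2 had 264.7, against 0 in A for either. MED8, of the head module, which binds the polymerase, had isoforms on both sides at that age. Glyma.12G188300.1 had 376 in B against 0 in A, and Glyma.12G188300.4 had 0 in B against 262 in A. The head subunit MED17, Glyma.17G117600.2, was listed at 50 days with 155.9 in B against 0 in A. In the middle module MED4, Glyma.13G067700.3, had 0 in B against 1196 in A at 95 days (adjusted p = 0.119 by the authors' deposited table).

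MED15a, a tail subunit that meets transcription factors, lay on the A side at both ages through different isoforms. Glyma.08G214900.1 had 198 normalised reads in B against 2412 in A at 95 days, 12.2-fold (10.5 to 14.3) lower in B, the smallest ratio among the members at that age. Glyma.08G214900.2 had 6.57 in B against 899.8 in A at 50 days, 137-fold (66.2 to 341) lower in B. Isoform 1 was not listed at 50 days and isoform 2 was not listed at 95 days.

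MED26c had 2 genes on opposite sides at 95 days. Glyma.05G187800.1 had 1303 normalised reads in B against 0 in A, at least 349-fold higher in B, and its adjusted p of 0.0528 in the authors' deposited table missed the threshold. Glyma.08G146000.2 had 12.03 in B against 768 in A, 63.9-fold (35.4 to 129) lower in B. That second gene lay on the A side at 50 days too, with 0 in B against 1090 in A (adjusted p = 0.138 by the authors' deposited table). How the authors' counting divided reads between near-identical soybean gene copies, or between isoforms of the same gene, is not stated. The split between such copies or isoforms is therefore uncertain. The remaining Mediator rows at 95 days had reads in A only. Glyma.18G143900.2, described as a putative subunit 26, had 432 there, and Glyma.02G085600.1, described as subunit 37c, had 88.4. The Arabidopsis match of Glyma.02G085600.1 is a heat shock protein of the HSP70 family, so this chaperone is in the group by its description.

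**Figure D2:**
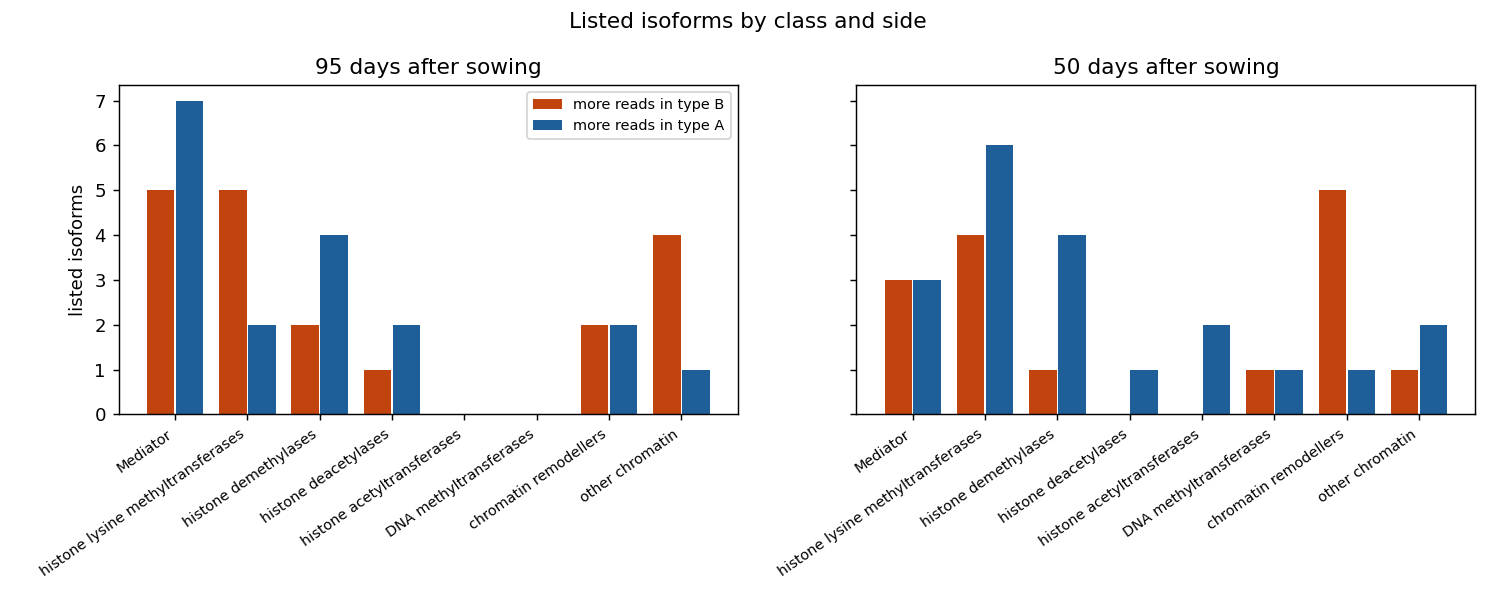
Number of listed isoforms (vertical axis) with more reads in type B and in type A, by class, at 95 days (left) and 50 days (right). Demethylases stand at 2 in B and 4 in A at 95 days and at 1 in B and 4 in A at 50 days, and remodellers at 2 in B and 2 in A at 95 days and at 5 in B and 1 in A at 50 days.

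Histone lysine methyltransferases, the writers of histone methylation, had 5 isoforms higher in B and 2 in A at 95 days, and 4 in B and 6 in A at 50 days. None was called at either age. The ASHH2-like gene, whose Arabidopsis counterpart marks the bodies of active genes and delays flowering, had 2 listed isoforms, and both lay on opposite sides in the 2 tables. Its isoforms Glyma.04G245400.2 and Glyma.04G245400.3 had 361 and 344 normalised reads in B against 0 in A at 95 days. At 50 days the same isoforms had 0 in B against 271 and 311 in A. Their adjusted p-values in the authors' deposited tables lay between 0.636 and 0.758, and neither was called at either age.

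The trithorax-type methyltransferases ATX1 and ATX2 write an activating mark at promoters. At 95 days a gene described as ATX1-like, with the symbol ATX2, had Glyma.08G258500.1 with 985 normalised reads in B against 0 in A, and Glyma.08G258500.2 with 0 in B against 1366 in A. Isoform 2 was at least 416-fold lower in B and missed the threshold with an adjusted p of 0.0509 in the authors' deposited table. At 50 days only an ATX2-like isoform of another gene was listed, Glyma.18G282700.3, with 0 in B against 1185 in A.

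SUVR5, a zinc finger methyltransferase that silences genes without DNA methylation in Arabidopsis, accounted for 5 of the 10 isoforms of this class at 50 days, from 3 genes. Glyma.11G062100.3 had 868 normalised reads in B against 0 in A, while Glyma.11G062100.1 had 0 in B against 968 in A. A second gene showed the same division: Glyma.01G180100.1 had 809 in B against 1.61 in A, 504-fold (139 to 4170) higher in B, and Glyma.01G180100.3 had 1.88 in B against 954 in A, 508-fold (140 to 4198) lower in B. Those low values rest on 2 reads each. The remaining gene, Glyma.02G060500.6, had 19.7 in B against 1013 in A. At 95 days 1 SUVR5 isoform was listed, Glyma.11G062100.3, again on the B side, with 449.6 in B against 0 in A.

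Methyltransferases of the SUVH type, described as writers of a silencing mark on histone H3, were listed at 50 days only and had reads in B alone. SUVH4, known in Arabidopsis as KRYPTONITE and tied to DNA methylation, had 403 normalised reads in Glyma.19G103600.3, and the SUVH1-like Glyma.19G124100.3 had 294. At 95 days the genes described as SUVR2-like took opposite sides, though their symbols differ. Glyma.19G167900.4, with the symbol and Arabidopsis match SUVR4, had 437 in B against 0 in A. Glyma.13G126600.1, with the symbol SUVR2, had 0 in B against 169 in A.

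Histone demethylases, the erasers of these marks, had 2 isoforms higher in B and 4 in A at 95 days, and 1 in B and 4 in A at 50 days. In all 11 listings the lower library had no read. REF6, which removes the mark of the Polycomb repressors, lay on the A side at both ages through different isoforms. Glyma.06G174000.2 had 0 in B against 1431 normalised reads in A at 50 days, at least 508-fold lower in B, and was called (adjusted p = 0.0385 by the authors' deposited table). Glyma.06G174000.1 had 0 in B against 522 in A at 95 days and was not called (adjusted p = 0.119 by the authors' deposited table).

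JMJ16, an eraser of activating methylation, had 2 genes listed. Glyma.20G218400.1 had 383 normalised reads in B against 0 in A at 95 days. Glyma.19G165500 lay on the A side at both ages, with isoform 1 at 0 in B against 501 in A at 95 days, and isoform 4 at 0 in B against 587 in A at 50 days. The related JMJ18-like Glyma.15G191600.2 had 136 in B against 0 in A at 50 days, the only demethylase on the B side at that age.

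The JMJ25-like demethylases had reads in A only. At 95 days Glyma.08G060200.3 had 174 there. At 50 days Glyma.17G010600.4 had 773, with an adjusted p of 0.0572 in the authors' deposited table, and Glyma.10G153000.2 had 413. LDL3, a homologue of the human demethylase LSD1, had isoforms on both sides at 95 days. Glyma.14G216900.1 had 1081 in B against 0 in A (adjusted p = 0.114 by the authors' deposited table), and Glyma.14G216900.6 had 0 in B against 1493 in A, at least 455-fold lower in B (adjusted p = 0.0629 by the authors' deposited table).

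Few enzymes of histone acetylation were listed, and none was called. The deacetylase HDT1, of a family found in plants, was listed through different isoforms on opposite sides. Glyma.19G191000.1 had 206 normalised reads in B against 0 in A at 95 days, and Glyma.19G191000.2 had 0 in B against 693 in A at 50 days. At 95 days the broad repressor HDA19, Glyma.04G000200.2, had 0 in B against 167 in A, and HDA14, Glyma.05G192600.1, had 0 in B against 488 in A. Acetyltransferases were listed at 50 days only. The HAC1-like Glyma.15G000300.1, related to the animal co-activators p300 and CBP, had 0.939 in B, which is 1 read, and 474 in A, 505-fold (90.3 to 19987) lower in B. Glyma.11G009600.7, an MCC1-like acetyltransferase named for its part in meiotic crossovers in Arabidopsis, had 0 in B against 153 in A.

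EAF1 is the platform subunit of the NuA4 acetyltransferase complex in yeast, and its genes made up all members described only as chromatin modification-related. Glyma.18G169600.5 had reads in B against 0 in A at both ages. It had 1862 normalised reads in B at 95 days, at least 498-fold higher, where its adjusted p was 0.0509 by the authors' deposited table, and 2028 in B at 50 days, at least 842-fold higher, where it was called (adjusted p = 0.0296 by the authors' deposited table). A further isoform, Glyma.18G169600.2, had 274.6 in B against 0 in A at 95 days. The gene Glyma.16G093800 turned sides between the tables. Its isoforms 9 and 11 had 167 and 159 in B against 0 in A at 95 days, but 0 in B against 137 and 128 in A at 50 days. Another gene, Glyma.08G352600.3, had 0 in B against 497 in A at 95 days.

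The maintenance DNA methyltransferase, DNMT1-like (MET1 in Arabidopsis), which copies methylation to newly made strands, was listed at 50 days only. Glyma.04G187600.1 had 326 normalised reads in B against 0 in A, and Glyma.04G187600.3 had 0 in B against 149 in A. Both had an adjusted p of 1 in the authors' deposited table.

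Chromatin remodellers, which use ATP to slide or evict nucleosomes, had 2 isoforms on each side at 95 days, and 5 higher in B and 1 in A at 50 days. None was called, and the lowest adjusted p of the class in the authors' deposited tables was 0.254. PICKLE, which represses embryonic genes in Arabidopsis seedlings, had 20.8 normalised reads in B against 775 in A at 95 days (Glyma.06G063400.2), 37.3-fold (23.7 to 62.3) lower in B. Its relative CHR4 had Glyma.08G086100.2 with 0 in B against 623 in A at 95 days, and Glyma.08G086100.4 with 646 in B against 5.62 in A at 50 days. These are different isoforms, and neither was listed at the other age. On the B side at 95 days stood CHR5, Glyma.14G033600.1, with 449.6, and CHR35, Glyma.12G236100.1, with 132. The Arabidopsis counterpart of CHR35, DRD1, works in RNA-directed DNA methylation.

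At 50 days 4 further remodellers had reads in B against 0 in A. CHR8, Glyma.13G124600.1, related to the repair factor CSB, had 374 normalised reads. The SWI/SNF subunit SNF12, Glyma.19G071500.2, had 316, the SWI/SNF-related CHR28, Glyma.20G100800.1, had 131, and the ATRX-like CHR20, Glyma.20G227200.2, had 121. The exception was Glyma.03G181800.2, described as a chromodomain helicase and matched to MOM1, a silencing factor of Arabidopsis, with 0 in B against 36.9 in A. It did not pass the size rule. Its log2 ratio in the authors' deposited table was -5.24, close to the median of all listed transcripts at 50 days, -5.29. Centred on that median its log2 ratio was 0.045, which follows from the subtraction alone.

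Isoforms of the same gene on opposite sides were a repeated form among these genes. Of 7 member genes with at least 2 listed isoforms at 95 days, 4 had them on opposite sides (57.1%), against 145 of 280 over all listed genes (51.8%). At 50 days these were 4 of 6 (66.7%) and 102 of 258 (39.5%). With so few member genes no difference from the rest is claimed. At 95 days the genes were LDL3, MED8, MED12 and Glyma.08G258500, described as ATX1-like with the symbol ATX2. At 50 days they were DNMT1, MED12 and 2 SUVR5 genes. Their splits rest on how the authors' counting divided reads between isoforms of the same gene, which is not stated.

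Summed over their listed isoforms, these 8 cases had ratios of B over A from 0.555 to 2.18, and from 0.474 to 1.87 without the authors' size factors. The cases were chosen for isoforms on opposite sides, so sums closer to each other than the single isoforms follow from that choice, and the sums are given as a description. For MED12 the sums were 1727 normalised reads in B against 1993 in A at 95 days, a ratio of B over A of 0.867 (0.808 to 0.930), which was 0.987 without the size factors. At 50 days its sums were 1550 in B against 2795 in A, a ratio of 0.555 (0.523 to 0.588), which was 0.474 without the size factors. For the SUVR5 genes at 50 days the ratios were 0.896 (0.822 to 0.977) for Glyma.11G062100 and 0.849 (0.777 to 0.928) for Glyma.01G180100. At 95 days the ratio was 0.721 (0.659 to 0.788) for the ATX1-like Glyma.08G258500, 0.724 (0.665 to 0.788) for LDL3 and 1.44 (1.21 to 1.72) for MED8. DNMT1 at 50 days had 326 in B against 149 in A, a ratio of 2.18 (1.82 to 2.62), which was 1.87 without the size factors. Unlisted isoforms are missing from these sums, which are therefore not gene totals.

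**Figure D3:**
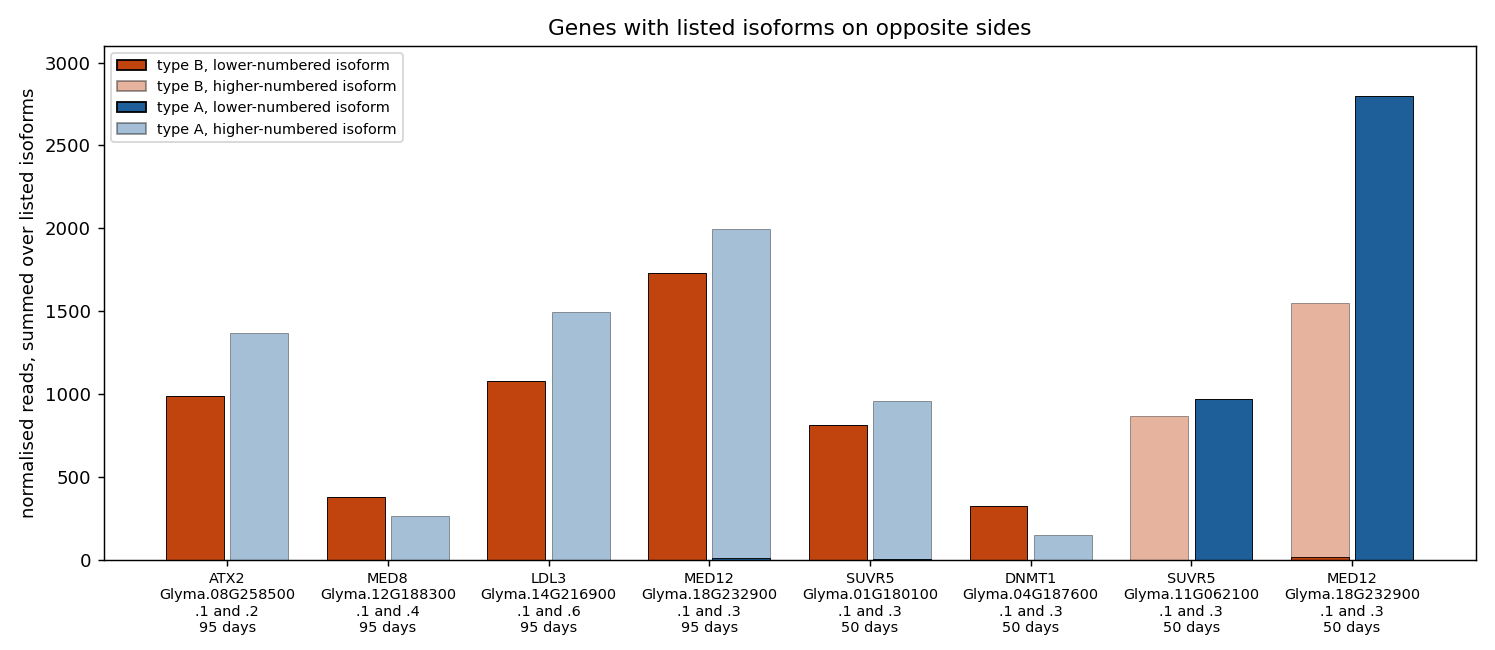
Normalised reads summed over the 2 listed isoforms (vertical axis) in type B and type A for the 8 cases of a gene with isoforms on opposite sides, 95 days on the left and 50 days on the right, with full colour for the lower-numbered isoform and pale colour for the higher-numbered one. The cases were chosen for isoforms on opposite sides. In them each bar is almost wholly 1 isoform and the other isoform fills the other library's bar. The summed ratios of B over A run from 0.555 to 2.18.

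Of the members, 9 isoforms of 6 genes were listed at both ages, which is 24.3% of the members at 95 days and 25.7% of those at 50 days. By column letter, 6 of the 9 lay on opposite sides in the 2 tables, against 252 of 788 isoforms over the whole series (31.98%). With the rule's words searched in every text column, 7 of 15 did. These 6 came from 3 of the 6 genes (50%), ASHH2, MED12 and the EAF1-like Glyma.16G093800, and over the whole series 229 of 719 such genes (31.8%) held an isoform that turned. The 3 that stayed were MED26c Glyma.08G146000.2 on the A side and SUVR5 Glyma.11G062100.3 and EAF1 Glyma.18G169600.5 on the B side. EAF1 Glyma.18G169600.5 had log2 ratios of 10.86 at 95 days and 10.99 at 50 days in the authors' deposited tables. Since no source ties a letter to a type, a turn here is between tables and is not shown to be a change with age within a type. Another 5 genes were listed at both ages through different isoforms, REF6, MED15a and JMJ16 on the A side in both tables, and CHR4 and HDT1 on opposite sides.

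**Figure D4:**
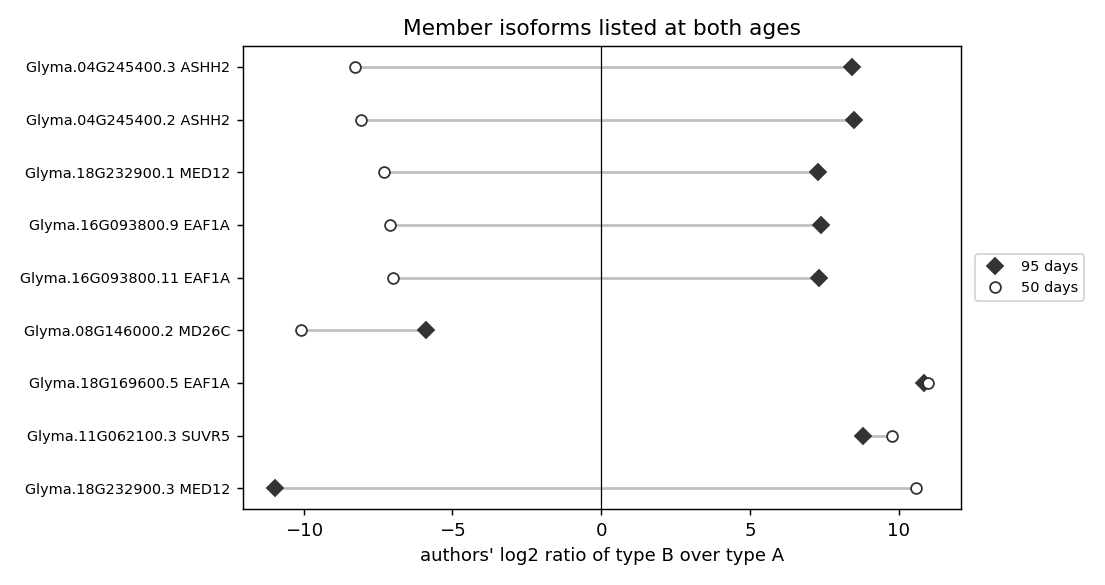
The authors' log2 ratio of type B over type A (horizontal axis) for the 9 member isoforms listed at both ages, filled diamonds for 95 days and open circles for 50 days. For 6 isoforms the symbols lie on opposite sides of 0, and for 3 on the same side.

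Genes that work beside these proteins were listed in small numbers. Of the general machinery of RNA polymerase II, 3 isoforms were higher in B and 8 in A at 95 days, and 1 in B and 3 in A at 50 days. At 95 days 3 of these 11 were subunits of TFIIIC, which serves RNA polymerase III. The list held the only call among these genes, the TFIID subunit TAF2, Glyma.17G121600.2, with 2156 normalised reads in B against 0 in A at 50 days (adjusted p = 0.0369 by the authors' deposited table). The polymerase subunit RPB2, Glyma.09G066000.1, had 0 in B against 721 in A at 95 days. Of RNA silencing factors, 5 isoforms had more in B and 3 in A at 95 days, and 4 in B and 2 in A at 50 days. DICER-LIKE 1, Glyma.19G261200.3, which makes microRNAs, had 0 in B against 2197 in A at 95 days (adjusted p = 0.0567 by the authors' deposited table).

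Polycomb and reader proteins had 3 isoforms higher in B and 1 in A at 95 days, and 4 in B and 1 in A at 50 days. The 1 in A at 95 days was an EMBRYONIC FLOWER 2-like Polycomb subunit, Glyma.11G036800.4, with 4.38 normalised reads in B against 955 in A. The 1 in A at 50 days was another such subunit, Glyma.10G118800.4, with 0 in B against 157 in A. The rows on the B side were described as PHD finger proteins, a cysteine-rich polycomb-like protein and, at 50 days, a jmjC domain protein. Other remodelling ATPases and histone chaperones had 1 isoform in A at 95 days and 5 in B at 50 days, 3 of the 5 being nucleosome assembly proteins. INO80 Glyma.03G133700.2 was among them at both ages, with 0 in B against 304 in A at 95 days, and 273 in B against 0 in A at 50 days.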

How the data were processed

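Per the labels' protocols, leaf RNA was extracted with Genall Ribospin and run on an Illumina NovaSeq. The submitters' processing notes name Trimmomatic 0.36 and DESeq 1.36.0, and no source used here states the aligner, the counter or the build. The deposited signal for B and A proved to be counts over a size factor, plus 1: with 1 subtracted, 100% of values in each of the 4 columns lay within 0.01 of a whole number of steps. Normalised reads are the deposited value minus 1. The implied size factors were 0.914 (B) and 0.803 (A) at 95 days, and 1.06 (B) and 1.25 (A) at 50 days, so 3 reads are 3.28, 3.74, 2.82 and 2.41 normalised reads. The log2 ratio of B over A (1 included), p-value and adjusted p-value are the authors' deposited values. At 50 days 1 repeated row was dropped. No test was run, since 1 library per group allows none; the size rule was applied instead. Members were found by words in the description column, and classes by further words. Members, lists and the call rule were chosen with earlier results of these data known. All listed members are described; the rule for named genes (called, listed at both ages, isoforms on opposite sides, small classes, most reads or largest ratio per side) chose those given at length. No gene ID of 3358 matched the RefSeq table supplied (0 matched), so names are the tables' own and no sequence or coordinate is given. Step recovery and interval coverage were checked on simulated data. The coverage check used smaller folds than the largest ones reported with an interval. It left out draws with no read in the lower library, so it does not cover the lower bounds. Software was pandas 2.3.3, scipy 1.17.1, numpy 2.4.6 and matplotlib 3.10.9 under Python 3.11.15. Alternatives covered the p threshold, minimum fold, size rule, pseudocount, filters on level and on 0 reads, 1 isoform per gene, membership and scaling.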

Additional observations from a re-analysis of the deposited data

Results flagged for a closer look

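The isoforms below had their ratios on opposite sides at 95 and at 50 days. The difference between the ages was not tested, and it is by column letter, which no source ties to a type. The difference of the authors' log2 ratios of B over A, 95 days minus 50 days, was 16.59 for ASHH2-like Glyma.04G245400.2 and 16.71 for Glyma.04G245400.3. It was 14.33 for EAF1-like Glyma.16G093800.11 and 14.51 for Glyma.16G093800.9. For MED12 it was 14.59 in Glyma.18G232900.1 and -21.54 in Glyma.18G232900.3. Both listed isoforms of the ASHH2-like and EAF1-like genes turned the same way, while those of MED12 turned in opposite ways.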

How the results depend on the processing

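With 1 library per type and age no library could be left out. No paired analysis was possible because the groups share only 1 replicate number and no test was run. At an adjusted p under 0.1 there were 5 called members of 37 at 95 days and 4 of 35 at 50 days. Under 0.01 there were 0 at each age. The shares of all listed transcripts at these 2 thresholds were not computed, so the counts are not a result about the members. Among members with reads in both libraries, 0 were called at either age, and 25% of 4 had more reads in B at 95 days. Of these members, 3 of 4 passed the size rule at 95 days and 7 of 7 at 50 days, and 1 was listed at both ages, on opposite sides (1). With the level filter 20 of the 20 members left at 50 days passed the size rule. The lower counts under these 2 filters come with fewer members, and the matching shares of all listed transcripts were not computed. With the level filter 5 isoforms were listed at both ages and 2 of them turned. With 1 isoform per gene these were 3 and 1. With the rule's words searched in every text column, 7 of 43 were called at 50 days, where 4.64% of all listed were. Of these calls 4 were isoforms of 1 gene, Glyma.19G012300. By the same search 15 isoforms were listed at both ages, of which 7 turned, where 6 of the 9 reported did. Centred on all listed transcripts, 19 of 37 passed the size rule at 95 days and 15 of 35 at 50 days, and Glyma.03G181800.2 turned to 0.045. Centring subtracts the median of a list filtered by p from every listed ratio. It moves 1 side toward 0 and the other away, for members and all other transcripts alike. The share of all listed transcripts that passed after centring was not computed. Each of these alternatives changes the isoforms counted, the threshold or the ratios by its construction, and no other cause was tested. Leaving out the size factors moved the median of all listed by 0.12 at 95 days and by -0.25 at 50 days and turned no member. The members' median at 95 days turned to -3.60 with the level filter, -4.38 with reads in both libraries or without the other chromatin class, -5.52 with 1 isoform per gene and -6.48 with the wider word search. Of the values recomputed for the group, 63 stayed within 1.5 times (counts) or within the binomial interval (shares and medians, those that turned included), and 19 did not. The intervals were taken over isoforms, which are not replicates. That of the median at 95 days held both signs, so a median could turn and still be counted among the 63.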

Other observations

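Further isoforms held the rule's words outside the description, in the symbol, Arabidopsis match or gene ontology columns, and were chosen after their values were seen. They were 10 isoforms of 4 genes at 95 days, 1 with more reads in B and 9 in A, and 8 isoforms of 4 genes at 50 days, 2 in B and 6 in A. The gene Glyma.19G012300, an uncharacterised protein, had 4 isoforms listed at both ages, each with no read in B. At 95 days they had 1069 to 1426 normalised reads in A, with adjusted p-values of 0.0507 to 0.0549 in the authors' deposited table, and none was called. At 50 days they had 1426 to 1756 in A, and all 4 were called, with adjusted p-values of 0.0296 and 0.0360. Of all listed transcripts at 50 days 4.64% were called, and these 4 calls are on 1 gene. The bounds at 50 days were at least 506-fold to at least 623-fold lower in B. These isoforms stayed on the A side in both tables. Of all 788 isoforms listed at both ages, 536 kept their side.

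A second gene with the same Arabidopsis match, Glyma.04G180100, had isoforms 2, 3 and 4 in A only at 95 days, with 471 to 910 normalised reads, while isoform 1 had 136 in B and 1.25 in A. At 50 days isoforms 1 and 4 had none in B and 259 and 327 in A. SAWADEE HOMEODOMAIN HOMOLOG 1, Glyma.07G016000.2, which in Arabidopsis brings RNA polymerase IV to silenced loci, had 54.5 in B and none in A at 50 days, with an adjusted p of 1.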
